A study of Mus musculus with 20 samples.

Results

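The genes described here copy DNA or supply its building blocks. They are 38 mouse genes chosen by name: 6 subunits of the MCM helicase ring, 4 genes of origin recognition and licensing, 5 of helicase activation, 5 of the sliding clamp and its loader, 6 of the polymerases and primase, 4 of Okazaki fragment joining and single-strand binding, 5 of nucleotide supply and 3 of chromatin assembly and maintenance methylation. Of the 38, 34 have a row among the 20193 gene symbols of the deposited sheets, and all counts below refer to these 34. Gins2, Rfc4, Tyms and Chaf1a were not analysed here.

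A cell licenses its replication origins before S phase, when the origin recognition complex with Cdc6 and Cdt1 loads the MCM ring onto DNA. Cdc45 and the GINS complex then turn the ring into a moving helicase, behind which primase and the replicative polymerases copy both strands while ribonucleotide reductase and thymidine kinase keep up the supply of deoxynucleotides. Many of these genes are known targets of E2F factors, and myoblasts that leave the cell cycle to form muscle fibres are known to lower them.

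The cells were C2C12, a mouse myoblast line that differentiates when serum is lowered, and the assay was the Affymetrix expression array. A time-course set held untransfected cells in growth medium with 20% serum (Undiff, day 0) and untransfected cells after 1 day (Day_1) or 2 days (Day_2) in medium with 2% horse serum. It also held cells that received 1 of 3 siRNAs, named siMyolinc.1, siMyolinc.2 and siMyolinc.3, at 10 nM to knock down the lncRNA Myolinc, and that were taken at day 2 of differentiation, which began a day after transfection. A scramble set held the same siMyolinc groups beside cells transfected with a scramble siRNA (siScr, 10 nM) at day 2. Each group has 2 arrays, called biological replicates in the labels. The p-values set a change against the spread within such pairs, pooled over all groups of a set and moderated over genes by limma. They do not reflect the spread of a single group. All groups share 1 cell line.

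Every value is a log2 expression level that the authors computed with RMA, and levels are compared only within a set, because the sets were normalized apart (array medians 6.93 to 6.97 in the scramble set and 7.42 to 7.51 in the time-course set). The siMyolinc arrays of the sets were treated as the same hybridisations, given correlations of 0.933 to 0.949 between arrays of the same label after gene centring and at most 0.289 otherwise, so the 20 samples are 14 distinct arrays. Of 8 muscle markers, 5 (Myf5, Des, Actc1, Tnnt2 and Cdh15) lay above the array median on every array of both sets. None of 5 endothelial markers did, and 1 each of 6 adipocyte (Pparg) and 4 epithelial markers (Krt8) did. Of 6 macrophage markers 1 did so in each set, Cd14 in the scramble set and Cd68 in the time-course set. Myolinc itself was not analysed here, so no check of the knockdown is given. Day_1 is a single pair of arrays, so a batch of that pair and the day cannot be told apart.

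The first comparison asked how the replication genes change when untransfected myoblasts differentiate. All 34 genes fell from Undiff to Day_1, with a median change of -1.73 log2, and all 34 were still below Undiff on Day_2, with a median of -0.98. The largest fall at Day_1 was that of Rrm2, the small subunit of ribonucleotide reductase, to 9.91% of its Undiff level, and the smallest that of Dut, the enzyme that removes dUTP, to 72.7%. A gene counts as changed here where limma gives an adjusted p below 0.05, with all genes of that sheet in the adjustment. By that rule 48.1% of all genes were called in either direction for Day_1 against Undiff and 21.1% were called lower, with a median over all genes of 0.11. For Day_2 against Undiff 29.9% of all genes were called and 15.2% were called lower, with a median of -0.03. In none of the 34 genes did an array of Day_1 or Day_2 overlap an Undiff array, and in 28.2% (Day_1) and 36% (Day_2) of all genes the later arrays lay below in that way. In such bulk samples fewer cells in S phase and less RNA per cell cannot be told apart.

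Between Day_1 and Day_2 most levels moved back part of the way, in a comparison that shares the Day_1 arrays with the one above. Of the 34 genes 31 were higher on Day_2 than on Day_1 and 1, Dut, was lower, with a median change of 0.76 against -0.12 over all genes. Here 53.6% of all genes were called in either direction, 21.1% higher and 32.4% lower. Cdt1 (0.01 ± 0.15, adjusted p = 0.976) and Fen1 (0.13 ± 0.09, adjusted p = 0.21) did not pass the test, where ± is the standard error of the log2 change, here and below. After centring arrays on the 75th percentile 24 of the 34 were higher and 1 lower, against 2973 and 11050 of all genes. A second quantile normalization gave 27 and 1, against 3695 and 4349 of all genes. The call was lost in 7 of 20 alternative settings for Cdc6, in 5 for Gins3 and Pola2 and in 4 for Rpa2. The order Undiff, then Day_2, then Day_1 from high to low held in the group means of every gene but Dut, in Cdt1 and Fen1 without a call for the last step. This order was not counted over all genes. Muscle markers moved over the same days: the log2 of their summed level was 13.27 on both Undiff arrays, 12.54 to 12.64 on Day_1 and 14.11 to 14.13 on Day_2, and its part in these changes was not tested. From Undiff to Day_1, 3 of 6 macrophage, 3 of 5 endothelial, 2 of 6 adipocyte and 3 of 4 epithelial markers were also called higher and 1 macrophage and 1 adipocyte marker lower, likewise untested. In that step 27% of all genes were called higher and 21.1% lower.

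**Figure D1:**
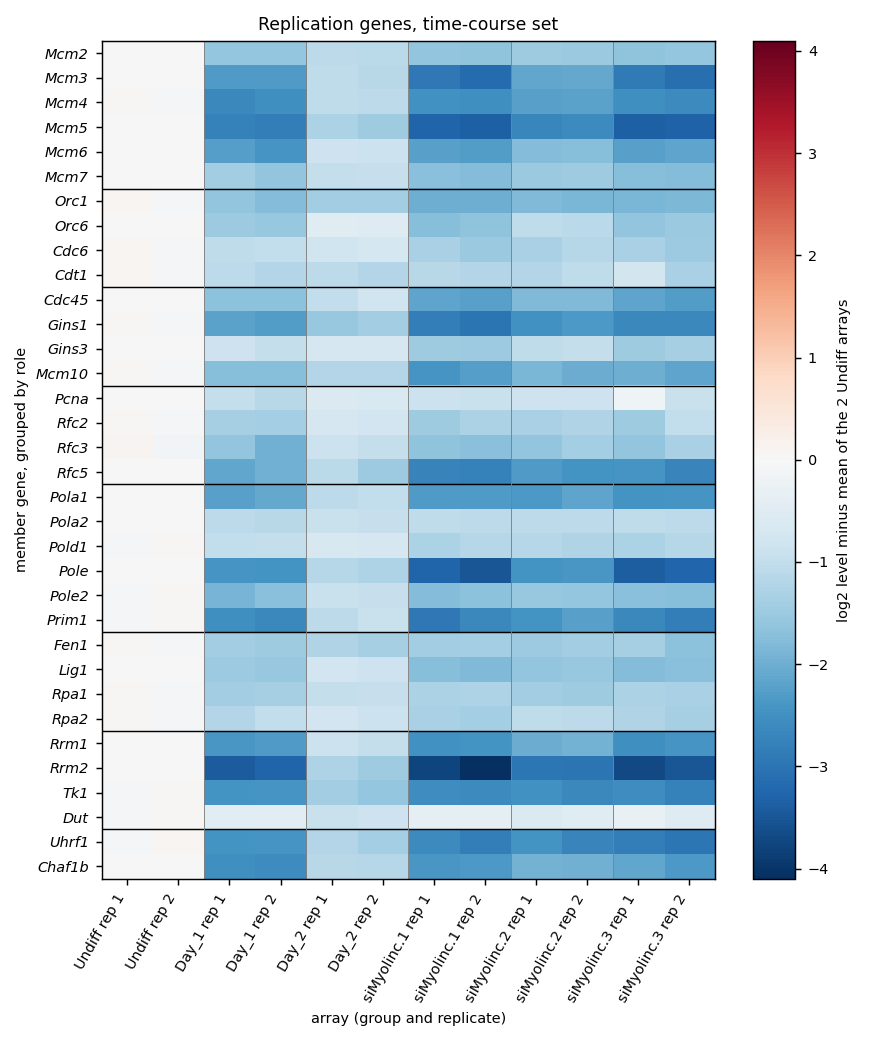
Log2 level of each of the 34 measured genes minus the mean of its 2 Undiff arrays, with 1 column per array of the time-course set and genes grouped by role; blue is lower. All Day_1, Day_2 and siMyolinc arrays are below Undiff for every gene, and the Day_2 columns are paler than the Day_1 columns in most rows.

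The MCM ring fell as a whole. All 6 subunits were lower on Day_1, with changes of -1.54 to -2.81 log2, and all 6 rose again from Day_1 to Day_2, by 0.48 to 1.53. The log2 level of Mcm5 was 11.33 and 11.37 in Undiff, 8.57 and 8.51 in Day_1 and 10.07 and 9.91 in Day_2, while the 6 siMyolinc arrays ran from 7.99 to 8.73 (median 8.06). The Undiff, Day_1 and Day_2 arrays did not overlap, and the siMyolinc arrays lay on either side of Day_1. Mcm5 fell by 2.81 log2 to 14.2% of Undiff (adjusted p = 7.23e-10) and was 1.44 ± 0.07 higher on Day_2 than on Day_1 (adjusted p = 3.76e-08).

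To Day_1 Mcm7 changed least within the ring. Its level was 10.92 and 10.93 in Undiff, 9.48 and 9.29 in Day_1 and 9.94 and 9.96 in Day_2, and from 9.14 to 9.47 (median 9.20) on the siMyolinc arrays. Every Day_1 array lay below every Day_2 array, and the change from Undiff to Day_1 was -1.54 ± 0.07 (adjusted p = 2.14e-08). Mcm3 read 10.29 and 10.24 in Undiff, 7.93 and 7.95 in Day_1 and 9.23 and 9.12 in Day_2. Mcm4 read 10.73 and 10.63 in Undiff, 8.02 and 8.16 in Day_1 and 9.64 and 9.60 in Day_2. Mcm6 read 10.22 and 10.19 in Undiff, 7.96 and 7.77 in Day_1 and 9.36 and 9.32 in Day_2. In these 3 subunits the Day_2 arrays stood at least 1 log2 unit above the Day_1 arrays and again below Undiff, with changes from Day_1 to Day_2 of 1.24 ± 0.09, 1.53 ± 0.07 and 1.48 ± 0.07. Mcm2 was -1.58 ± 0.06 on Day_1 and -1.10 ± 0.06 on Day_2 against Undiff.

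As a description, the promoter windows of these genes were searched for the letters of E2F sites. RefSeq windows (build GRCm38.p6, from 250 bases before to 50 after the start) were at hand for 30 of the 34 genes, in 35 windows. On either strand, TTTCGCGC, TTTGGCGC or TTTCCCGC occurred in 14 of 35 windows, or 40%, against 1.84% of all 32817 windows of that length. The CHR letters TTTGAA were in 11.4% of the windows against 17.9% of all, and CCAAT in 60% against 37.4%. A match describes the letters and not a bound site. The genes were chosen by name and many are known E2F targets, so a raised share could be foreseen. Windows were not matched for base composition, and the part of these letters in the changes was not tested. Windows of 4 genes follow as examples. Mcm3, Mcm5 and Mcm6 are lower in the siMyolinc mean against siScr below, and Orc1 does not pass that test. All 4 examples hold such letters, and the called genes Orc6, Rfc5, Rrm1 and Rrm2 hold none in their windows. Among genes with a window, 3 of 7 called there and 11 of 23 not called hold such letters. Each window is written 5′ to 3′ on the gene's strand with the E2F letters of either strand in capitals. Overlapping matches form 1 run of capitals in Mcm5 and in Mcm6.
Mcm3 promoter, chr1:20820263-20820562, minus strand: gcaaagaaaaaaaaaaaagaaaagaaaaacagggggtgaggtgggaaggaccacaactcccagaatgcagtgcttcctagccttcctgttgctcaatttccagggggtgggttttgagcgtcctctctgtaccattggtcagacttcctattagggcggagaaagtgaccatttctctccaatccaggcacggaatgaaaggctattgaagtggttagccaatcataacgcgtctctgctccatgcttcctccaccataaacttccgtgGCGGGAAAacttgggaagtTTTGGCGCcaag
Mcm5 promoter, chr8:75109259-75109558, plus strand: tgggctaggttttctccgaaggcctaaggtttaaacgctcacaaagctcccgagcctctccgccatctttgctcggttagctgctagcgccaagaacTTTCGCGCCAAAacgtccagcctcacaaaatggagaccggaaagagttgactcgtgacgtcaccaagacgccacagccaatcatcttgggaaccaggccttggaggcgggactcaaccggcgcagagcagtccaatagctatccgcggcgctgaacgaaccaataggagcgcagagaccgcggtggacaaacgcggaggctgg
Mcm6 promoter, chr1:128359656-128359955, minus strand: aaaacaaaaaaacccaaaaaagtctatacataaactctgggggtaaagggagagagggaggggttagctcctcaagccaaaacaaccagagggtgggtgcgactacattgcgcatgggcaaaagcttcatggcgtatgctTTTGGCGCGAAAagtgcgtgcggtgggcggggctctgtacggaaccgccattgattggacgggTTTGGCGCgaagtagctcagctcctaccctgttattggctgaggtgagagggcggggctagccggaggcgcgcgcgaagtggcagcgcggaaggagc
Orc1 promoter, chr4:108579204-108579503, plus strand: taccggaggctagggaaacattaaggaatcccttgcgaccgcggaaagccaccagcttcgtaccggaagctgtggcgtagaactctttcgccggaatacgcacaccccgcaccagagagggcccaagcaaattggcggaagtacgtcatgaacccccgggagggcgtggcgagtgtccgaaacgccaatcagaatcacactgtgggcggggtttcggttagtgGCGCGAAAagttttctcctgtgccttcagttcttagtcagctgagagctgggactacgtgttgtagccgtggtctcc
Mcm6 held 3 matches, Mcm3 and Mcm5 2 each and Orc1 1. Other genes with such letters were Mcm7, Cdc6, Cdt1, Gins3, Rfc3, Pola1, Pold1, Pole2, Lig1 and Uhrf1.

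Origin recognition and licensing genes fell at Day_1, with changes of -1.03 to -1.71. Orc1, the largest subunit of the origin recognition complex, read 8.85 and 8.68 in Undiff, 7.14 and 6.98 in Day_1 and 7.35 and 7.34 in Day_2, with siMyolinc arrays from 6.75 to 6.95 (median 6.89). The Day_1 and Day_2 arrays did not overlap, the siMyolinc arrays all lay below both, and the changes against Undiff were -1.71 ± 0.07 on Day_1 and -1.42 ± 0.07 on Day_2. Cdc6, which helps to load the MCM ring, had the smallest fall at -1.03 ± 0.09 (adjusted p = 5.25e-06), from levels of 8.82 and 8.63 in Undiff, 7.67 and 7.73 in Day_1 and 7.90 and 8.01 in Day_2. All Day_2 arrays stood above Day_1. Orc6, a small subunit of the same complex, read 10.75 and 10.80 in Undiff, 9.27 and 9.22 in Day_1 and 10.27 and 10.24 in Day_2, and its rise from Day_1 to Day_2 was 1.01 ± 0.06 (adjusted p = 2.83e-07). Cdt1, which brings the MCM ring to the origin, was as low on Day_2 (9.11 and 9.0) as on Day_1 (9.10 and 9.0).

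Among the helicase activators Gins1, a GINS subunit, fell most. Its level was 9.05 and 8.98 in Undiff, 6.82 and 6.72 in Day_1 and 7.47 and 7.58 in Day_2, with siMyolinc arrays from 6.01 to 6.66 (median 6.37). All siMyolinc arrays lay below Day_1, Day_1 lay below Day_2 and Day_2 below Undiff, and the fall to Day_1 was -2.25 ± 0.08 (adjusted p = 2.82e-09). Gins3, another subunit of that complex, had the smallest fall at -0.91 ± 0.06, from 9.58 and 9.55 in Undiff, 8.72 and 8.60 in Day_1 and 8.87 and 8.89 in Day_2. Its siMyolinc arrays, from 8.07 to 8.58 (median 8.17), lay below every Day_1 array. Cdc45, the partner of GINS and MCM in the active helicase, read 9.90 and 9.95 in Undiff, 8.24 and 8.25 in Day_1 and 8.91 and 9.11 in Day_2, and changed by -1.68 ± 0.07 to Day_1 and by 0.76 ± 0.07 from Day_1 to Day_2. Mcm10, an activation factor, was -1.75 ± 0.08 on Day_1.

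In the clamp and its loader, Rfc5, a small subunit of the loader, fell by 2.06 log2 to 24.1% of Undiff at Day_1 (adjusted p = 1.49e-07). Its level was 11.65 and 11.70 in Undiff, 9.54 and 9.71 in Day_1 and 10.56 and 10.19 in Day_2, and from 8.91 to 9.37 (median 9.10) on the siMyolinc arrays. The siMyolinc arrays lay below all others. Pcna, the sliding clamp, had the smallest fall of this role (-1.06 ± 0.17, adjusted p = 3.65e-04), from 12.54 and 12.51 in Undiff, 11.53 and 11.39 in Day_1 and 11.92 and 11.89 in Day_2. Its rise from Day_1 to Day_2 (0.45 ± 0.17, adjusted p = 0.0424) lost the call in 15 of 20 alternative settings. Rfc2 and Rfc3, further loader subunits, were -1.38 ± 0.12 and -1.79 ± 0.13 on Day_1.

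Prim1, the catalytic subunit of primase, fell most among the polymerase genes. It read 10.22 and 10.32 in Undiff, 7.76 and 7.63 in Day_1 and 9.20 and 9.36 in Day_2, with siMyolinc arrays from 7.35 to 8.03 (median 7.63). Day_2 stood well above Day_1 without overlap, and the changes were -2.57 ± 0.11 to Day_1 and 1.59 ± 0.11 from there to Day_2. Pold1, the catalytic subunit of polymerase delta, read 9.09 and 9.21 in Undiff, 8.15 and 8.17 in Day_1 and 8.48 and 8.45 in Day_2 and fell least (-1.0 ± 0.07, adjusted p = 8.0e-07). Pole, the catalytic subunit of the leading-strand polymerase epsilon, read 10.23 and 10.28 in Undiff, 7.84 and 7.82 in Day_1 and 9.07 and 9.0 in Day_2. Its change to Day_1 was -2.43 ± 0.08, and Day_2 lay between Day_1 and Undiff without overlap. Pola1, Pola2 and Pole2, which belong to polymerases alpha and epsilon, were -2.17, -1.11 and -1.82 on Day_1.

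Lig1, the ligase that joins Okazaki fragments, read 9.65 and 9.67 in Undiff, 8.19 and 8.10 in Day_1 and 8.87 and 8.80 in Day_2. Its change to Day_1 was -1.52 ± 0.06 (adjusted p = 9.01e-09), and all siMyolinc arrays, from 7.85 to 8.09 (median 7.92), lay below both Day_1 arrays. Rpa2, a subunit of the single-strand binding protein, fell least in this role (-1.11 ± 0.08), from 9.33 and 9.21 in Undiff, 8.06 and 8.26 in Day_1 and 8.50 and 8.39 in Day_2. Its large partner Rpa1 was -1.39 ± 0.06 on Day_1. Fen1, the flap nuclease of Okazaki fragments, was -1.44 ± 0.09 through the transcript cluster that the time-course sheet names. Through the cluster that the scramble sheet names, an alternative chosen after the data were seen, it was -0.29 ± 0.09 (adjusted p = 0.0292), so the size of its fall depends on the cluster. Pcna and Tk1 are the other genes for which the sheets name different clusters.

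Nucleotide supply held both ends of the range. Rrm2 read 11.85 and 11.90 in Undiff, 8.48 and 8.60 in Day_1 and 10.60 and 10.43 in Day_2, with siMyolinc arrays from 7.78 to 8.92 (median 8.28). Day_2 stood far above Day_1 without overlap, the change to Day_1 was -3.34 ± 0.11 (adjusted p = 2.0e-09) and that from Day_1 to Day_2 was 1.97 ± 0.11 (adjusted p = 1.14e-07), the largest rise of the 34. Its partner Rrm1, the large subunit, read 11.94 and 11.93 in Undiff, 9.55 and 9.62 in Day_1 and 11.04 and 10.97 in Day_2 and changed by -2.35 ± 0.06 and 1.42 ± 0.06 over the same steps. Tk1, the salvage kinase for thymidine, was -2.43 ± 0.08 on Day_1, and -2.76 ± 0.17 through the other sheet's cluster. Dut went another way, with 9.49 and 9.58 in Undiff, 9.09 and 9.06 in Day_1 and 8.63 and 8.70 in Day_2 and siMyolinc arrays from 8.93 to 9.24 (median 9.10). It was lower on Day_2 than on Day_1 (-0.41 ± 0.08, adjusted p = 0.00139), against the direction of the 31 genes that rose.

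In chromatin assembly, Chaf1b, a subunit of the histone chaperone CAF-1, read 10.66 and 10.67 in Undiff, 8.16 and 8.08 in Day_1 and 9.53 and 9.48 in Day_2. It fell by 2.54 to Day_1 (adjusted p = 1.42e-09). Uhrf1, which brings the maintenance methyltransferase to newly copied DNA, read 9.85 and 9.98 in Undiff, 7.47 and 7.51 in Day_1 and 8.71 and 8.53 in Day_2, with a change of -2.43 ± 0.10. In both genes the Day_2 arrays stood above the Day_1 arrays and below Undiff.

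**Figure D2:**
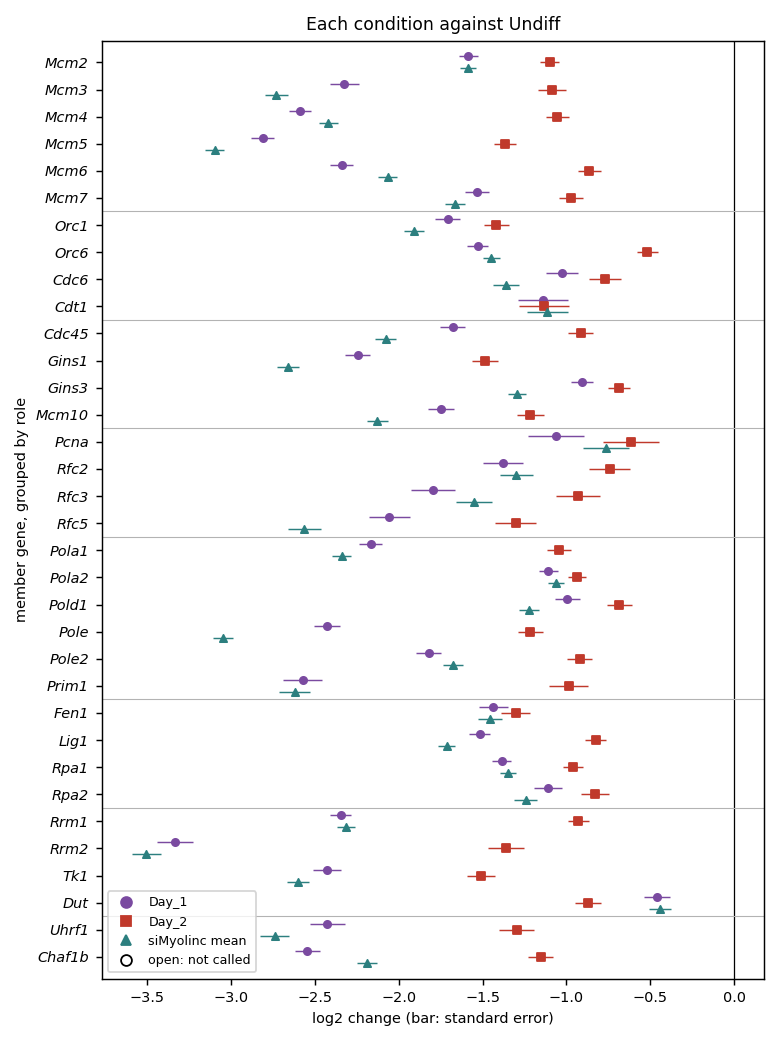
Log2 change against Undiff for each of the 34 genes in Day_1 (circles), Day_2 (squares) and the mean of the 3 siMyolinc groups (triangles), with standard errors as bars. Every point is left of 0 and filled, since all 34 genes were called lower in all 3 comparisons, and the Day_2 squares are nearest to 0 in every gene but Cdt1 and Dut.

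The siMyolinc cells at day 2 were next set beside the untransfected groups of the same set. Against Day_2 the siMyolinc mean was lower in 30 of the 34 genes and higher in 1, Dut, with a median of -0.90 against 0.045 over all genes. Here 38.1% of all genes were called and 18.9% were called lower. Against Undiff all 34 were lower (median -1.81, while 40.3% of all genes were called and 20.2% were called lower). Against Day_1 the siMyolinc mean was lower in 14 genes and higher in 3, with a median of -0.13 (42.9% of all genes called, 25.6% lower and 17.3% higher). Transfection and knockdown cannot be told apart in these comparisons, since the untransfected groups were not transfected with any siRNA. In the group means, 21 genes ran Undiff, Day_2, Day_1, siMyolinc from high to low and 11 ran Undiff, Day_2, siMyolinc, Day_1. Between siMyolinc and Day_1 17 of the 34 did not pass the test, so their last places can rest on small differences. The orders were not counted over all genes.

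Against Day_2 the largest differences were in Rrm2 (-2.14 ± 0.09, adjusted p = 5.27e-09), Pole (-1.83 ± 0.06), Mcm5 (-1.73 ± 0.05) and Mcm3 (-1.64 ± 0.07). The 6 siMyolinc arrays lay below both Day_2 arrays in 31 of the 34 genes, while in 20.1% of all genes they lay below and in 43.2% the sides did not overlap in either direction. Dut was higher by 0.43 ± 0.06 (adjusted p = 1.97e-04). Pcna, Cdt1 and Fen1 did not pass the test, at -0.15 ± 0.14, 0.02 ± 0.12 and -0.16 ± 0.07, and the call of Pola2 (-0.13 ± 0.05) was lost in 16 of 21 alternative settings. The muscle markers moved too: 7 of 8 were lower than on Day_2, and the log2 of their summed level was 11.96 to 12.75 on the siMyolinc arrays. Of the other markers 3 of 6 macrophage, 4 of 6 adipocyte, 1 of 5 endothelial and 0 of 4 epithelial were called higher than on Day_2 and none lower. The log2 of the summed adipocyte markers was 10.15 to 10.17 on Day_2 and 10.52 to 10.64 on the siMyolinc arrays, and that of the macrophage markers 9.37 to 9.40 and 9.64 to 9.76. The endothelial sum was 8.98 to 8.99 on Day_2 and 9.0 to 9.18 on the siMyolinc arrays, and the epithelial sum 9.08 to 9.09 and 9.10 to 9.22. Their part in the differences was not tested.

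Against Day_1 the direction differed between genes. All 4 helicase activators were lower, with changes of -0.38 to -0.41, and Pole was lower (-0.62 ± 0.06, adjusted p = 3.76e-05). In the MCM ring Mcm3 (-0.40 ± 0.07) and Mcm5 (-0.29 ± 0.05) were lower, while Mcm4 (0.17 ± 0.06, adjusted p = 0.0298) and Mcm6 (0.27 ± 0.06, adjusted p = 0.00387) were higher. Chaf1b was the third gene above Day_1, at 0.36 ± 0.06 (adjusted p = 0.00129), with siMyolinc arrays from 8.27 to 8.72 (median 8.43). Of the markers 6 of 8 muscle, 2 of 6 macrophage and 2 of 4 epithelial were lower than on Day_1 and 2 of 6 adipocyte higher, and their part was not tested. None of the 4 nucleotide supply genes passed the test, with changes from -0.17 to 0.03. With the 6 siMyolinc arrays as a single group 10 genes were lower and 1 was higher, and the calls of Mcm3, Mcm4, Mcm5, Mcm6, Pola1 and Pole were lost. In that setting 7037 of all 20193 genes were called. Over 21 alternative settings the call of Mcm4 was lost in 6 and that of Pola1 in 9.

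The comparison with the scramble siRNA asked how cells given a Myolinc siRNA differ at day 2 from cells given a control siRNA. Myolinc was not analysed here, so the knockdown and other effects of an siRNA cannot be told apart. Of the 34 genes 8 were lower in the siMyolinc mean and none was higher: Mcm3, Mcm5, Mcm6, Orc6, Rfc5, Pole, Rrm1 and Rrm2. By the same rule 9.09% of all genes were called, 5.45% lower and 3.64% higher, and the median change was -0.13 over the 34 genes and -0.01 over all. Changes ran from -0.80 ± 0.07 in Pole to 0.16 ± 0.07 in Dut, which did not pass the test (adjusted p = 0.243). In 5 genes (Mcm3, Rfc5 and Pole, and only just Mcm5 and Rrm1) all 6 siMyolinc arrays lay below both siScr arrays, and in 10.4% of all genes they did so (17.7% without overlap in either direction).

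The 8 calls rest on the spread within siRNAs. With the 6 siMyolinc arrays as a single group, limma called none of the 34, and 6 had an unadjusted p under 0.05. Of all 20193 genes it called 410 in that setting, and 3355 had an unadjusted p under 0.05. Of the 34, 4 had an unadjusted p under 0.05 in the authors' deposited table, Mcm5, Rfc5, Pole and Rrm1, against 14.5% of all genes. Without siScr replicate 2 the count was 5 in place of 8. The count over all genes without that array is not given here. Over 17 alternative settings the call of Rrm2 was lost in 6, that of Rfc5 in 5 and that of Orc6 in 2.

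The siRNAs differed from each other, and their comparisons with siScr share the siScr arrays. With siMyolinc.1, 11 of the 34 genes were lower than with siScr (median -0.21; 11.3% of all genes called, 7.13% lower and 4.15% higher) and with siMyolinc.3, 10 were (median -0.20; 9.11% called, 5.43% lower and 3.67% higher). For siMyolinc.2 limma called none of the 34, of which 2 had an unadjusted p under 0.05, with a median of 0.006 (1.35% of all genes called, 0.629% lower and 0.718% higher). Of all 20193 genes 2058 had an unadjusted p under 0.05 for siMyolinc.2. The F test among the 3 siRNAs called 10 of the 34, against 4.04% of all genes: Mcm3, Mcm4, Mcm5, Mcm6, Orc6, Cdc45, Gins3, Pole, Rrm1 and Rrm2. Tested directly, 12 genes were lower with siMyolinc.1 than with siMyolinc.2 (4.75% of all genes called, 3.26% lower and 1.49% higher) and 10 were lower with siMyolinc.3 than with siMyolinc.2 (4.25% called, 2.68% lower and 1.57% higher). Between siMyolinc.1 and siMyolinc.3 none of the 34 was called, and 1 had an unadjusted p under 0.05. Of all 20193 genes 0% were called there, and 1207 had an unadjusted p under 0.05.

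The F count was 2 without siMyolinc.2 replicate 1, 3 without siMyolinc.2 replicate 2 and 6 without siMyolinc.1 replicate 2. Counts over all genes in these fits are not given here. The summed muscle markers followed the same division of the siRNAs. Their summed log2 was 12.76 to 12.86 in siScr and 12.61 to 12.64 with siMyolinc.2. It was 11.80 to 11.86 with siMyolinc.1 and 11.89 to 11.92 with siMyolinc.3, and 6 of 8 were lower in the siMyolinc mean. Of 6 macrophage markers 2, Cd68 and Cd14, were higher, with a summed log2 of 8.88 on both siScr arrays and 9.12 to 9.30 on the siMyolinc arrays, and none of the endothelial, adipocyte and epithelial markers was called. Their part in the differences was not tested.

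**Figure D3:**
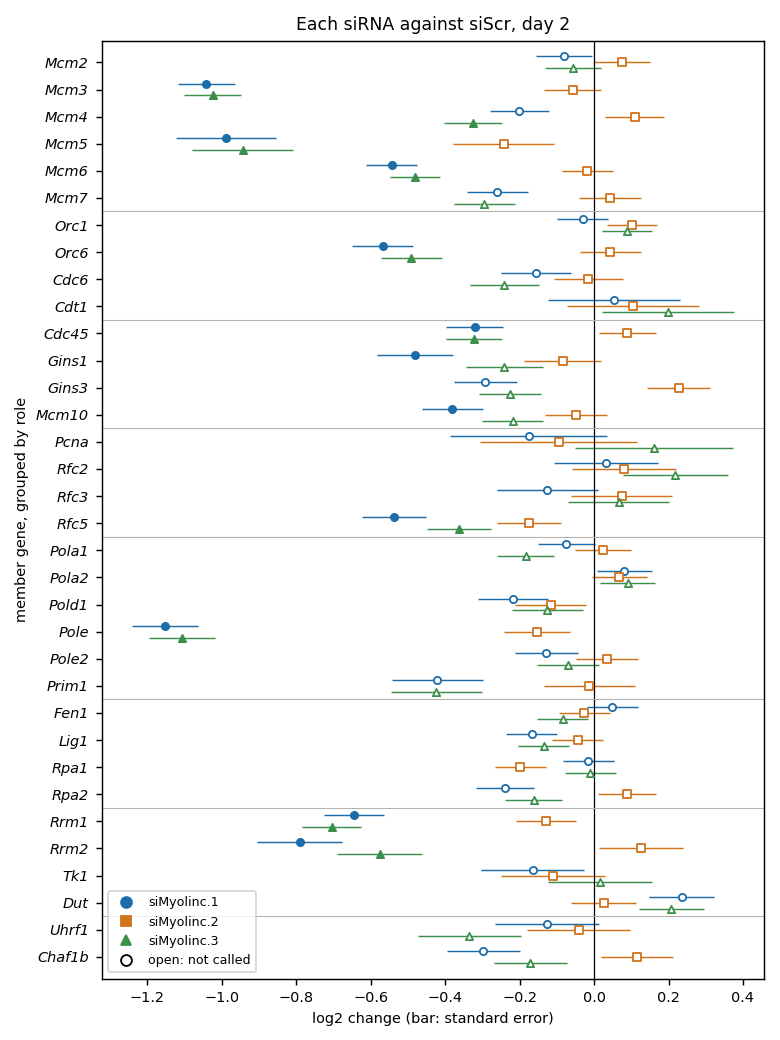
Log2 change against siScr for each of the 34 genes with siMyolinc.1 (circles), siMyolinc.2 (squares) and siMyolinc.3 (triangles), with standard errors as bars and filled symbols for called genes. The siMyolinc.2 squares are all open and lie between -0.24 and 0.23, while the filled symbols of the other siRNAs all lie left of 0.

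Within the MCM ring Mcm3 and Mcm5 moved most. Mcm3 read 7.77 and 7.79 in siScr, 6.77 and 6.70 with siMyolinc.1, 7.71 and 7.73 with siMyolinc.2 and 6.83 and 6.68 with siMyolinc.3. The siMyolinc.1 and siMyolinc.3 arrays lay about 1 log2 unit below the others, which nearly coincided, and the changes were -1.04 ± 0.08 with siMyolinc.1 (adjusted p = 6.29e-05), -0.06 ± 0.08 with siMyolinc.2 (adjusted p = 0.909) and -1.02 ± 0.08 with siMyolinc.3 (adjusted p = 9.40e-05). Mcm5 read 8.26 and 8.72 in siScr, 7.59 and 7.42 with siMyolinc.1, 8.23 and 8.26 with siMyolinc.2 and 7.62 and 7.48 with siMyolinc.3. Here the siScr arrays differed widely from each other, the siMyolinc.2 arrays lay beside the lower of them, and the mean change was -0.73 ± 0.11 (adjusted p = 0.00371). Mcm6 read 8.06 and 8.02 in siScr, 7.51 and 7.49 with siMyolinc.1, 7.99 and 8.06 with siMyolinc.2 and 7.55 and 7.57 with siMyolinc.3, and its mean change was -0.35 ± 0.06 (adjusted p = 0.00495).

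Mcm4 read 7.92 and 8.0 in siScr, 7.77 and 7.75 with siMyolinc.1, 8.08 and 8.05 with siMyolinc.2 and 7.72 and 7.55 with siMyolinc.3, above siScr with siMyolinc.2 and below it with the others, and only siMyolinc.3 was called (-0.33 ± 0.08, adjusted p = 0.0332), a call lost in 11 of 16 alternative settings. Mcm2 read 9.57 and 9.44 in siScr, 9.43 and 9.41 with siMyolinc.1, 9.59 and 9.55 with siMyolinc.2 and 9.40 and 9.49 with siMyolinc.3. The siMyolinc.1 arrays lay just below siScr, the other siRNAs overlapped it, and its mean change, the smallest of the ring, was -0.02 ± 0.06 (adjusted p = 0.896). Mcm7 was -0.17 ± 0.07 (adjusted p = 0.175).

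Of the origin genes Orc6 was lower. It read 9.18 and 9.33 in siScr, 8.64 and 8.74 with siMyolinc.1, 9.31 and 9.29 with siMyolinc.2 and 8.71 and 8.82 with siMyolinc.3, with siMyolinc.1 and siMyolinc.3 below and siMyolinc.2 among the siScr values, and its mean change was -0.34 ± 0.07 (adjusted p = 0.013). Orc1 read 6.13 and 6.15 in siScr, 6.12 and 6.10 with siMyolinc.1, 6.22 and 6.26 with siMyolinc.2 and 6.19 and 6.26 with siMyolinc.3. The siMyolinc values lay on either side of siScr, and its mean change was 0.05 ± 0.06 (adjusted p = 0.664). Cdc6 and Cdt1 were -0.14 ± 0.08 and 0.12 ± 0.15, neither past the test, and the siMyolinc.3 arrays of Cdt1 stood at 8.96 and 8.30.

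None of the 4 helicase activators passed the test in the siMyolinc mean, and 3 were lower with siMyolinc.1. Cdc45 read 7.50 and 7.51 in siScr, 7.26 and 7.11 with siMyolinc.1, 7.62 and 7.57 with siMyolinc.2 and 7.20 and 7.16 with siMyolinc.3, below siScr with siMyolinc.1 (-0.32 ± 0.08, adjusted p = 0.0268) and siMyolinc.3 (-0.32 ± 0.08, adjusted p = 0.0309) and not with siMyolinc.2. Its calls were lost in 9 of 16 alternative settings for siMyolinc.1 and in 10 of 16 for siMyolinc.3. Gins1 read 6.29 and 6.09 in siScr, 5.79 and 5.64 with siMyolinc.1, 6.05 and 6.16 with siMyolinc.2 and 5.85 and 6.06 with siMyolinc.3, and its change was -0.48 ± 0.10 with siMyolinc.1 (adjusted p = 0.0168) and -0.27 ± 0.08 in the mean (adjusted p = 0.0859). Gins3 read 7.94 and 7.84 in siScr, 7.66 and 7.54 with siMyolinc.1, 8.07 and 8.17 with siMyolinc.2 and 7.60 and 7.74 with siMyolinc.3, with the siMyolinc.2 arrays highest and the siMyolinc.1 and siMyolinc.3 arrays lowest. Gins3 differed from siMyolinc.2 by -0.52 ± 0.08 with siMyolinc.1 and by -0.45 ± 0.08 with siMyolinc.3. Mcm10 was -0.38 ± 0.08 with siMyolinc.1, a call lost in 6 of 15 alternative settings, and that of Gins1 was lost in 4 of 15.

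In the clamp and loader Rfc5 alone was called. It read 9.04 and 9.0 in siScr, 8.55 and 8.41 with siMyolinc.1, 8.86 and 8.83 with siMyolinc.2 and 8.75 and 8.56 with siMyolinc.3, all siMyolinc arrays below both siScr arrays, with a mean change of -0.36 ± 0.07 (adjusted p = 0.0131). Rfc3 read 7.79 and 7.76 in siScr, 7.70 and 7.60 with siMyolinc.1, 7.73 and 7.97 with siMyolinc.2 and 7.62 and 8.05 with siMyolinc.3, and its mean change of 0.005 ± 0.11 was the smallest of the role. For Pcna the siMyolinc.3 arrays stood at 12.11 and 11.38 and the siScr arrays at 11.36 and 11.81, so the replicates differed by more than the mean change (-0.04 ± 0.17).

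Of the 34 genes Pole had the largest mean change. It read 7.49 and 7.55 in siScr, 6.47 and 6.26 with siMyolinc.1, 7.34 and 7.39 with siMyolinc.2 and 6.35 and 6.47 with siMyolinc.3. The arrays of siMyolinc.1 and siMyolinc.3 stood about 1 log2 unit below siScr, at 45% and 46.4% of its level (adjusted p = 7.91e-05 and adjusted p = 1.29e-04), and siMyolinc.2 at 89.9% (adjusted p = 0.67). Its partner subunit Pole2 read 7.66 and 7.81 in siScr, 7.54 and 7.67 with siMyolinc.1, 7.79 and 7.75 with siMyolinc.2 and 7.71 and 7.62 with siMyolinc.3, with overlapping groups and a mean change of -0.05 ± 0.07 (adjusted p = 0.727). Prim1 was -0.29 ± 0.10 (adjusted p = 0.123), and Pola1, Pola2 and Pold1 were -0.08, 0.08 and -0.15, none past the test.

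None of the 4 genes of Okazaki fragments and single-strand binding was called. Lig1 read 7.64 and 7.58 in siScr, 7.41 and 7.47 with siMyolinc.1, 7.58 and 7.55 with siMyolinc.2 and 7.50 and 7.46 with siMyolinc.3, with the siMyolinc.1 and siMyolinc.3 arrays below siScr and a mean change of -0.12 ± 0.06 (adjusted p = 0.278). Fen1 read 6.57 and 6.55 in siScr, 6.64 and 6.57 with siMyolinc.1, 6.52 and 6.54 with siMyolinc.2 and 6.51 and 6.45 with siMyolinc.3. The siMyolinc.1 arrays lay above siScr and the siMyolinc.2 and siMyolinc.3 arrays below it, and its mean change was -0.02 ± 0.06 (adjusted p = 0.889). The mean changes of Rpa1 and Rpa2 were -0.07 and -0.10.

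Both subunits of ribonucleotide reductase were lower. Rrm1 read 9.74 and 9.86 in siScr, 9.12 and 9.19 with siMyolinc.1, 9.61 and 9.74 with siMyolinc.2 and 9.06 and 9.13 with siMyolinc.3, with a mean change of -0.49 ± 0.07 (adjusted p = 0.00185). Rrm2 read 8.28 and 8.31 in siScr, 7.60 and 7.41 with siMyolinc.1, 8.56 and 8.29 with siMyolinc.2 and 7.61 and 7.83 with siMyolinc.3, with a mean change of -0.41 ± 0.09 (adjusted p = 0.0247). In both the siMyolinc.1 and siMyolinc.3 arrays lay well below siScr, and the siMyolinc.2 arrays lay just below it in Rrm1 and on or above it in Rrm2. Tk1 read 6.93 and 6.71 in siScr, 6.70 and 6.61 with siMyolinc.1, 6.89 and 6.53 with siMyolinc.2 and 6.98 and 6.68 with siMyolinc.3, with siMyolinc arrays on either side of siScr and a mean change of -0.09 ± 0.11 (adjusted p = 0.74). Dut, the gene that opposed the others against Day_2, read 8.65 and 8.50 in siScr, 8.84 and 8.78 with siMyolinc.1, 8.59 and 8.61 with siMyolinc.2 and 8.88 and 8.69 with siMyolinc.3. Its siMyolinc.1 and siMyolinc.3 arrays lay above siScr, and its mean change of 0.16 ± 0.07 did not pass the test.

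Neither chromatin gene passed the test in the siMyolinc mean. Uhrf1 read 7.10 and 6.82 in siScr, 6.90 and 6.76 with siMyolinc.1, 7.05 and 6.78 with siMyolinc.2 and 6.79 and 6.46 with siMyolinc.3, with a mean change of -0.17 ± 0.11 (adjusted p = 0.457). Chaf1b read 8.08 and 8.24 in siScr, 7.87 and 7.86 with siMyolinc.1, 8.30 and 8.25 with siMyolinc.2 and 8.12 and 7.86 with siMyolinc.3, with -0.12 ± 0.08 (adjusted p = 0.458). In Uhrf1 the siMyolinc.3 arrays lay below siScr and the others overlapped it. In Chaf1b siMyolinc.1 lay below siScr and siMyolinc.2 above it, while the siMyolinc.3 arrays lay between the siScr values (8.12) and below both (7.86).

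**Figure D4:**
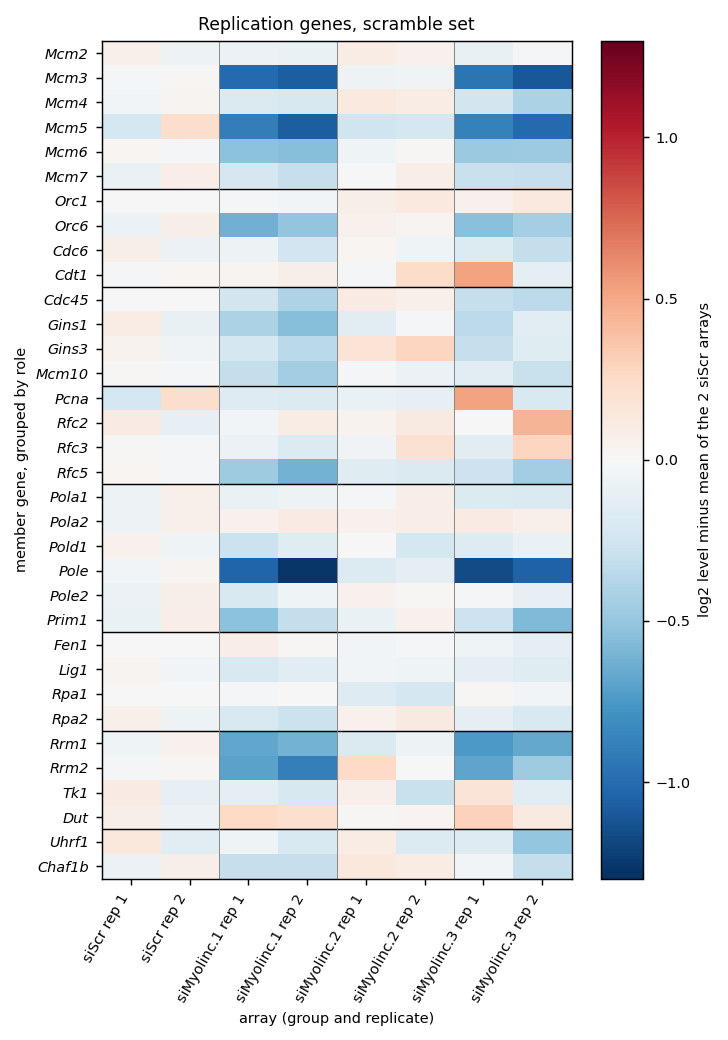
Log2 level of each of the 34 genes minus the mean of its 2 siScr arrays, with 1 column per array of the scramble set and genes grouped by role; blue is lower. Mcm3, Mcm5 and Pole are dark blue in the 4 arrays of siMyolinc.1 and siMyolinc.3, and Mcm6, Orc6, Rrm1 and Rrm2 are a lighter or mixed blue there. These rows are pale in the siMyolinc.2 arrays.

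The 2 references, which share the siMyolinc arrays, gave different pictures. In 33 of the 34 genes the log2 change of the siMyolinc mean against untransfected Day_2 lay below its change against siScr. The change was below 0 in 32 genes against Day_2 and in 28 against siScr. Of the 34 genes 22 were called lower against Day_2 and not against siScr. Among them were Mcm2 (-0.49 against Day_2 and -0.02 against siScr), Prim1 (-1.63 and -0.29), Uhrf1 (-1.44 and -0.17) and Pola1 (-1.30 and -0.08). Of all genes 18.9% were called lower against Day_2 and 5.45% against siScr, and the shares of all genes with the patterns above were not counted. The changes come from sets normalized apart, and Pcna, Fen1 and Tk1 are read through different clusters in them. siScr and Day_2 do not occur in 1 set, so they were not compared with each other. Of the 7 genes called lower against siScr that have a promoter window, 3 hold the E2F letters printed above, and of the 23 not called, 11 do.

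The rest of the pathway was followed through 4 further lists. The medians from Undiff to Day_1 were -0.78 for other fork, origin and polymerase subunits, -0.92 for S-phase control, -1.49 for chromatin copying and -0.37 for other nucleotide genes, beside 0.11 over all genes. Of all genes 21.1% were called lower and 27% higher there. In that step 27 of 29 other fork, origin and polymerase subunits fell, with the clamp loader subunit Dscc1 (-2.25), Atad5 (-2.16), which unloads the clamp, and the fork protein Wdhd1 (-2.14) first. Of 26 S-phase control genes 19 fell, led by the cyclin Ccnd1 (-2.99), the E2F factor E2f8 (-2.91) and the cyclin Ccne1 (-2.30), and 3 rose, the CDK inhibitors Cdkn1b (0.60), Cdkn1c (0.40) and Cdkn1a (0.32). All 10 genes of chromatin copying fell, with the remodeller Hells (-2.50), the histone chaperone Asf1b (-2.21) and the methyltransferase Dnmt1 (-1.84) in front. Of 31 other nucleotide genes 22 fell, most of all the salvage kinase Dck (-2.13), the dNTP hydrolase Samhd1 (-1.55) and Prps2 (-1.18), and 3 rose, the folate enzymes Mthfd2 (0.64) and Shmt2 (0.48) and the reductase subunit Rrm2b (0.37).

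From Day_1 to Day_2 the medians were 0.29 for the fork subunits, 0.40 for S-phase control, 0.38 for chromatin copying and -0.09 for the other nucleotide genes, beside -0.12 over all genes, of which 21.1% rose and 32.4% fell. Of the fork subunits 21 rose, led by Dscc1 (1.24), Atad5 (1.15) and the primase subunit Prim2 (1.01), and 2, Pold2 (-0.26) and Mtbp (-0.24), fell. Of the S-phase control genes 16 rose, with E2f8 (2.02), Ccnd1 (1.64) and Lin9 (1.18) first, and 1, Cdkn1c (-0.44), fell. In chromatin copying 8 rose, among them Asf1b (1.43), Dnmt1 (1.20) and Hells (1.18). Of the other nucleotide genes 8 rose, led by Dck (1.15), Prps2 (0.98) and Samhd1 (0.98), and 12 fell, led by Mthfd2 (-1.14), Shmt2 (-0.98) and the pyrimidine synthesis enzyme Cad (-0.81).

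In the siMyolinc mean against siScr 10.3% of the fork subunits, 15.4% of S-phase control, 10% of chromatin copying and 19.4% of the other nucleotide genes were called in either direction, beside 9.09% of all genes. The medians were -0.03, -0.04, -0.12 and -0.08 for fork subunits, S-phase control, chromatin copying and other nucleotide genes. Of the 29 fork subunits 3 were lower: Rnaseh2a (-0.50), which removes RNA primers, Pold2 (-0.44) of polymerase delta and Prim2 (-0.29). Of the S-phase control genes Ccnd1 (0.96) and the licensing inhibitor Gmnn (0.33) were higher, and the pocket protein Rbl2 (-0.24) and E2f2 (-0.22) were lower. Asf1b (-0.92) was the 1 gene of 10 called in chromatin copying. Of the other nucleotide genes 5 were lower, led by Samhd1 (-0.66), the thymidylate kinase Dtymk (-0.29) and Mthfd1 (-0.24), and 1, the purine salvage gene Hprt (0.23), was higher.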

How the data were processed

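Trizol was used to extract RNA, and cRNA carrying biotin went onto Affymetrix arrays, per the labels' protocols. The authors computed the deposited log2 levels per transcript cluster, and the submitters' processing notes name RMA and limma (version, build: not given in the sources used here). Sheets by the authors pair 1 transcript cluster with each of 20193 symbols and hold the authors' unadjusted p-values. Day numbers stood in 23 cells of 1 time-course array (siMyolinc.3) and were treated as missing; none belongs to the 34 genes. No sample column was left unused (0 columns).

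For this report limma 3.58.1 in R 4.3.3 was fitted to those log2 values with a coefficient for each group, every array of the set and two-sided Benjamini-Hochberg adjustment over all genes. The siMyolinc mean weights the siRNAs equally. Standard errors of log2 changes had medians of 0.071 (siMyolinc mean against siScr) and 0.0801 (single groups, time-course set), and 2 arrays per group limit the precision. The fits were tested on simulated data. Array values are printed for the genes with the largest and smallest change of their role, those the F test called and those called against the majority, and of each further list the 3 called genes with the largest change in each direction are named. Replicates with the same number did not deviate together (correlations from -0.113 to 0.221 in the scramble set and from -0.167 to 0.237 in the time-course set), so the fits hold no replicate block. Alternatives were array centring, repeated quantile normalization, a filter on dim genes, a trended robust prior, other sets of arrays or clusters and leaving out arrays. The genes, lists and tests were chosen with earlier results of these data known.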

Additional observations from a re-analysis of the deposited data

Results flagged for a closer look

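In 10 of the 34 genes the effects of the 3 siRNAs against siScr differed in the moderated F test of limma. The adjusted p was 0.000368 for Mcm3, 0.0333 for Mcm4, 0.0224 for Mcm5 and 0.00519 for Mcm6. It was 0.00583 for Orc6, 0.0221 for Cdc45, 0.0155 for Gins3 and 0.000741 for Pole, and 0.00695 for Rrm1 and 0.00519 for Rrm2. These genes were picked by the F test on the same arrays, so the separation and pairwise tests that follow describe them and add no support. In each of these genes all 4 arrays of siMyolinc.1 and siMyolinc.3 lay below both arrays of siMyolinc.2. The differences were -0.98 and -0.97 log2 for Mcm3 and -1.0 and -0.95 for Pole. Tested against siMyolinc.2, both siRNAs were called lower in each of the 10 genes except Mcm4, where siMyolinc.1 (-0.31, adjusted p = 0.0624) did not pass.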

How the results depend on the processing

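There were 6845 values of single genes under the alternatives, of which 501 are from the F test and have no direction. Of the 6845, 6499 kept their side of the threshold and any direction they have, 198 lost the call, 52 gained it and 96 changed sign. The 96, in 51 pairs of a gene and a comparison, were not called in the reported fit or under the alternative (0 in each), and the largest of their reported changes was 0.218 in size. With 75th percentile centring these changes were, for Day_2 against Day_1, -0.129 in Cdt1 and -0.001 in Fen1. For siMyolinc against Day_1 they were -0.064 in Cdt1, -0.072 in Dut, -0.009 in Orc6, -0.044 in Pola2, -0.011 in Rfc2, -0.052 in Rpa1 and -0.058 in Rrm1. For the siMyolinc mean against siScr they were 0.018 in Fen1, 0.018 in Mcm2 and 0.002 in Pcna. For siMyolinc.1 against siScr they were 0.027 in Orc1 and 0.042 in Rpa1. For siMyolinc.2 against siScr they were 0.006 in Cdc6, 0.003 in Mcm6 and 0.009 in Prim1. For siMyolinc.3 against siScr they were 0.028 in Rpa1. After a second quantile normalization these changes were, for Day_2 against Day_1, -0.144 in Cdt1. For siMyolinc against Day_1 they were -0.051 in Cdt1, -0.063 in Dut, -0.009 in Orc6, -0.041 in Pola2, 0.046 in Prim1, -0.048 in Rpa1 and -0.059 in Rrm1. For the siMyolinc mean against siScr they were 0.007 in Mcm2. For siMyolinc.1 against siScr they were 0.043 in Rpa1. For siMyolinc.2 against siScr they were 0.001 in Cdc6 and 0.002 in Mcm6. For siMyolinc.3 against siScr they were 0.028 in Rpa1. Through the other sheet's cluster these changes were, for Day_2 against Day_1, -0.149 in Fen1. For the siMyolinc mean against siScr they were 0.017 in Tk1. For siMyolinc.1 against siScr they were -0.015 in Fen1 and 0.045 in Tk1. For siMyolinc.2 against siScr they were 0.023 in Tk1. For siMyolinc.3 against siScr they were -0.017 in Tk1. Leaving out single arrays moved Day_2 against Day_1 over -0.047 to 0.059 in Cdt1. In siMyolinc against Day_1 the ranges were -0.072 to 0.124 in Cdt1, -0.018 to 0.054 in Dut, -0.07 to 0.027 in Fen1, -0.017 to 0.011 in Mcm2 and -0.113 to 0.02 in Prim1. They were also -0.007 to 0.072 in Rrm1. In siMyolinc against Day_2 the ranges were -0.078 to 0.118 in Cdt1. In the siMyolinc mean against siScr the ranges were -0.087 to 0.044 in Mcm2, -0.263 to 0.19 in Pcna, -0.127 to 0.019 in Pole2, -0.001 to 0.222 in Rfc2 and -0.067 to 0.077 in Rfc3. They were also -0.194 to 0.022 in Tk1. In siMyolinc.1 against siScr the ranges were -0.402 to 0.051 in Pcna, -0.079 to 0.143 in Rfc2 and -0.263 to 0.011 in Uhrf1. In siMyolinc.2 against siScr the ranges were -0.091 to 0.061 in Cdc6, -0.028 to 0.237 in Cdt1, -0.051 to 0.103 in Dut, -0.185 to 0.016 in Gins1 and -0.052 to 0.015 in Mcm6. They were also -0.048 to 0.134 in Mcm7, -0.03 to 0.117 in Orc6, -0.321 to 0.132 in Pcna, -0.042 to 0.09 in Pola1 and -0.039 to 0.108 in Pole2. They were also -0.098 to 0.074 in Prim1, -0.031 to 0.192 in Rfc2, -0.045 to 0.194 in Rfc3, -0.007 to 0.26 in Rrm2 and -0.29 to 0.07 in Tk1. They were also -0.179 to 0.096 in Uhrf1. In siMyolinc.3 against siScr the ranges were -0.127 to 0.525 in Cdt1, -0.122 to 0.009 in Mcm2, -0.203 to 0.525 in Pcna, -0.142 to 0.004 in Pole2 and -0.008 to 0.445 in Rfc2. They were also -0.151 to 0.283 in Rfc3, -0.039 to 0.019 in Rpa1 and -0.134 to 0.166 in Tk1. The count of genes called was 6 in place of 10 for siMyolinc.3 against siScr when all transcript clusters were fitted together. For the differences among the siRNAs it was 3 in place of 10 there. Both counts were the same when Pcna, Fen1 and Tk1 were read through the other sheet's cluster, where the same fit was used. That fit called 1354 and 210 of all 35556 clusters, and the reported fits called 1839 and 816 of all 20193 genes. With the 6 siMyolinc arrays as a single group the count of the 34 was 0 in place of 8 against siScr and 11 in place of 17 against Day_1. There 410 and 7037 of all genes were called. Leaving out single arrays gave 5 to 8 genes for the siMyolinc mean against siScr, 8 to 14 for siMyolinc.1, 0 for siMyolinc.2 and 6 to 9 for siMyolinc.3, with 5 and 6 reached without siScr replicate 2. It gave 2 to 11 for the differences among the siRNAs, 33 to 34 for Day_2 against Undiff, 27 to 32 for Day_2 against Day_1, 30 to 33 for siMyolinc against Day_2, 13 to 20 against Day_1 and 34 against Undiff, as for Day_1 against Undiff. Counts over all genes with single arrays left out are not given here. With a replicate block the counts were 8, 11, 0 and 11 for the siMyolinc mean, siMyolinc.1, siMyolinc.2 and siMyolinc.3 against siScr and 10 among the siRNAs. They were 34, 34 and 32 for the 3 comparisons of days and 30, 18 and 34 for siMyolinc against Day_2, Day_1 and Undiff, so the block changed no count by over 1.5 times. Centring on the 75th percentile moved the median over all genes from 0.109 to 0.26 for Day_1 against Undiff and from -0.121 to -0.256 for Day_2 against Day_1, and the medians of the 34 genes from -1.73 to -1.58 and from 0.76 to 0.62. The median of the 34 genes for siMyolinc.2 against siScr, 0.006, ran from -0.004 without siScr replicate 2 to 0.016 without siMyolinc.2 replicate 1 and was 0.043 with dim transcript clusters left out (25 genes), 0.028 with 75th percentile centring, 0.021 after a second quantile normalization and 0.023 through the other sheet's cluster. Under 75th percentile centring the share of higher among all called genes went from 40.1% to 53.5% for the siMyolinc mean against siScr, from 36.8% to 53.9% for siMyolinc.1, from 40.3% to 53.7% for siMyolinc.3, from 56.2% to 78.9% for Day_1 against Undiff, from 39.4% to 21.2% for Day_2 against Day_1, and from 40.3% to 20.6%, from 50.5% to 60.5% and from 50% to 60.7% for siMyolinc against Day_1, Day_2 and Undiff. For siMyolinc.1 it was 47.5% after a second quantile normalization. The cause of these moves was not tested.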
